A study of Mus musculus with 2 samples.

Results

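Chemokine-expressing neutrophils were studied among CD45+ leukocytes of the mouse aorta, CD45 being the surface protein that white cells share. They were picked from 2 single-cell RNA libraries: 1 from the group given ZnDPA@siIRF5, a preparation whose name carries a small interfering RNA against the transcription factor IRF5, and 1 from a control group. The labels give no number of animals pooled and no genotype, diet, sex, age or control preparation, so all differences below compare 1 library with 1 library and have no replicate check. A barcode (1 droplet, normally 1 cell) was kept with at least 500 detected genes and at most 15% mitochondrial UMIs, where a UMI is a unique molecular identifier that counts 1 captured transcript end. A kept barcode was a mature neutrophil if S100a8 and S100a9 made up at least 2% of its UMIs, if it had at least 2 UMIs of Csf3r, Cxcr2 and Retnlg together, and if genes of granulocyte precursors (Elane, Prtn3, Mpo), T cells (Cd3e), B cells (Cd79a) and macrophages (C1qa, C1qb, C1qc) were absent or nearly so. It was called chemokine-expressing when Cxcl2, Cxcl3, Ccl3 and Ccl4 together reached 5 UMIs. The rule found 2284 cells among 24504 kept barcodes, 1473 of 12466 in the library labelled ZnDPA@siIRF5 and 811 of 12038 in the control-labelled library, called below the treated-labelled and control-labelled libraries.

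Neutrophils are short-lived phagocytes that carry ready-made antimicrobial proteins in granules. Once activated through Toll-like receptors, cytokine receptors or adhesion, they also transcribe chemokines, mostly through NF-kB. The CXC chemokines Cxcl1, Cxcl2 and Cxcl3 bind Cxcr2 and call in further neutrophils, whereas the CC chemokines Ccl3 and Ccl4 attract monocytes, macrophages and T cells. In atherosclerotic arteries neutrophils are known as an early and scarce population that helps to recruit monocytes.

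The marker genes of these cells were not equally common. S100a8 and S100a9, the calcium-binding alarmins that fill neutrophil cytosol, made up a median of 13.4% of a cell's UMIs in the treated-labelled library and 15.7% in the control-labelled library. Csf3r, the receptor for granulocyte colony-stimulating factor, had a UMI in 86.4% and 88.4% of the cells. Cxcl2 had a UMI in 99.8% of cells of each library, and Ccl3 in only 27.2% (treated-labelled) and 27.0% (control-labelled), so the population is led by Cxcl2 and most of its cells had no Ccl3 UMI. Some genes that the rule did not use also set the cells apart from C1q macrophages, which the rule already kept out. Hdc, histidine decarboxylase, had 2341 CPM (UMIs of the gene per 1000000 UMIs summed over the cells) in the treated-labelled library and 2349 CPM in the control-labelled library, against 26.7 and 15.4 CPM in macrophages with at least 5 C1q UMIs. Il1r2, the decoy receptor for interleukin 1, had 1371 and 1482 CPM, against 33.6 and 33.4 CPM in those macrophages. Ly6g, a neutrophil surface gene that the rule did not use either, had a UMI in only 36.9% and 46.2% of the cells.

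The cells were shallow, as neutrophils are. Their median was 2279 UMIs and 870 genes in the treated-labelled library and 2396 UMIs and 868 genes in the control-labelled library, with medians of 0.44% and 0.456% mitochondrial UMIs and totals of 4188680 and 2450084 UMIs. The libraries shared 45 barcodes over all cells, none with identical counts and none that was a chemokine-expressing neutrophil in both. UMIs of other cells were present: immunoglobulin kappa (Igkc), made by B and plasma cells, had 827 CPM in chemokine-expressing neutrophils of the treated-labelled library and 3068 CPM in those of the control-labelled library. T cells, which do not make it, held 589 and 2210 CPM, so a low level of a gene in neutrophils has to be read against its level in T cells. All intervals given below are 95% intervals that cover counting error only.

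The gene that the treatment names was higher in the treated-labelled library, against its label. Irf5 had 241 and 77 UMIs, or 57.5 CPM in treated-labelled chemokine-expressing neutrophils and 31.4 CPM in those of the control-labelled library, a log2 ratio (treated-labelled over control-labelled) of 0.87 (0.50 to 1.26). It stayed between 0.60 and 1.02 over the alternatives run. By share of S100a8 and S100a9, it was 0.93 in cells under 5% and 0.73 in those from 5% to under 15%. In cells with at least 15% it was 0.52, below 1.5-fold, from 69 and 33 UMIs. In neutrophils with fewer chemokine UMIs Irf5 had 29.4 and 10.4 CPM, and in T cells 20.2 and 11.7 CPM. After each cell was thinned to 1000 UMIs, which removes differences in depth, Irf5 was seen in 5.39% of treated-labelled chemokine-expressing neutrophils and 2.97% of those of the control-labelled library, against 1.84% and 1.45% of T cells, whose median depth before thinning was 4623 and 4001 UMIs. Uptake of the siRNA was not measured.

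Chemokine-expressing neutrophils made up 11.8% (11.3 to 12.4) of kept barcodes in the treated-labelled library and 6.74% (6.30 to 7.2) in the control-labelled library, a ratio of 1.75. Mature neutrophils of any kind made up 16.4% and 8.61%, a ratio of 1.91, and the chemokine-low cells among them, with 0 to 4 UMIs of the 4 genes, 4.61% and 1.88%. Within mature neutrophils the chemokine-expressing share was therefore slightly lower in the treated-labelled library, 71.9% (69.9 to 73.9), than in the control-labelled library, 78.2% (75.6 to 80.7). That order turned when at least 1000 genes were asked of a cell, to 69.3% and 64.9%. Shares of a sorted suspension depend on every other cell type in it, and whether more neutrophils or fewer other cells set them cannot be told apart.

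**Figure D1:**
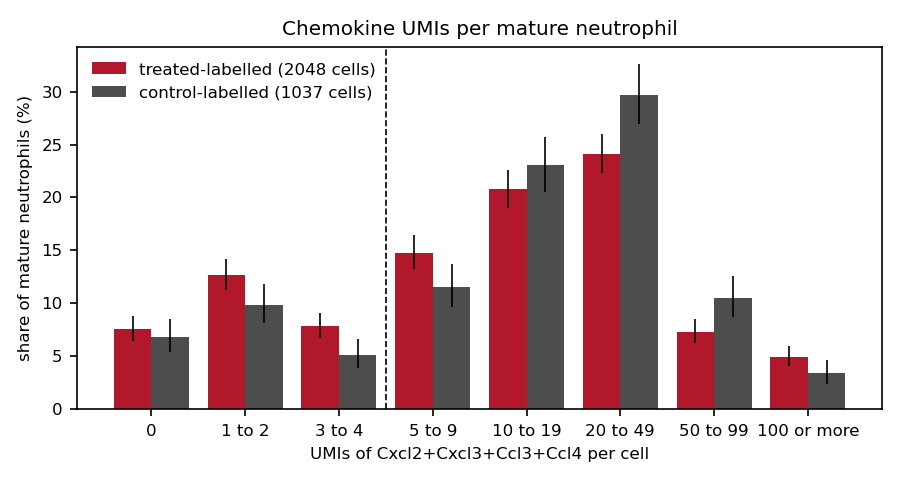
Share of mature neutrophils (vertical axis, %) by summed UMIs of Cxcl2, Cxcl3, Ccl3 and Ccl4 per cell (horizontal axis). Bars are the 2 libraries with exact 95% binomial intervals, and the dashed line marks the threshold of 5 UMIs. No gap separates the cells on its sides. The classes differ in width, so the tallest bars, at 20 to 49 UMIs, do not mark a peak per UMI.

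The threshold cut a continuous range. Mature neutrophils with 0 UMIs of the 4 genes were 7.57% in the treated-labelled library and 6.85% in the control-labelled library. Those with 20 to 49 UMIs, the largest of the classes, which differ in width, were 24.1% and 29.7%. By single UMI number, 155 and 71 cells had exactly 0, 141 and 67 had 1, and 90 and 32 had 3. Just inside the threshold, 62 and 22 cells had exactly 5 UMIs, with 4767 and 4325 CPM of Il1b. Just outside it, 71 and 21 cells had exactly 4, with 5390 and 3239 CPM.

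Within the 4 genes Cxcl2 carried most of the signal. It supplied 84.8% (84.5 to 85.1) of their UMIs in the treated-labelled library and 89.3% (88.9 to 89.6) in the control-labelled library, and it was the highest of the 4 in 96.0% and 98.0% of cells. Each molecule is counted once at its 3′ end, so these shares do not depend on transcript length. No UMI of Ccl3 or Ccl4 was found in 50.8% and 53.6% of cells, and all 4 genes together in 3.80% and 1.73%. The signal was uneven: the 10% of cells with most UMIs of the 4 genes held 41.0% of them in the treated-labelled library and 35.4% in the control-labelled library. The 2 CC chemokines, which are neighbours on chromosome 11 (Ccl3 at chr11:83647844-83649355 and Ccl4 at chr11:83662584-83664683, GRCm38), were seen in the same cells more often than in others. After thinning, Ccl4 was seen in 47.9% of cells with Ccl3 and 19.4% of cells without it (treated-labelled), and in 43.9% and 18.0% (control-labelled). Ccl3 itself was seen in 17.9% and 16.3% of thinned cells, against 1.73% and 1.12% of T cells.

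Cxcl3 (gene at chr5:90786103-90789600), Cxcl1 and Cxcl2 (gene at chr5:90903871-90905938) lie near each other on chromosome 5, and the 120 bases from 150 to 31 bases before their RefSeq starts (GRCm38.p6, each on the strand of its gene) are shown because all 3 hold a form of the NF-kB motif. Ccl3, which holds none, is shown beside them. Both strands were searched for GGG, any 2 bases, then TTTCC, and capitals mark each match.
Cxcl2 chr5:90903749-90903868 (+): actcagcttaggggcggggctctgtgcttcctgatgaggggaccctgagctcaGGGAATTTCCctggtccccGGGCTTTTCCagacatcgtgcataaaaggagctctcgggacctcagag
Cxcl3 chr5:90785951-90786070 (+): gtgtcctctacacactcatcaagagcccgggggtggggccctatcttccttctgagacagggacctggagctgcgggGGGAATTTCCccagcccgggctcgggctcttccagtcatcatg
Cxcl1 chr5:90891095-90891214 (+): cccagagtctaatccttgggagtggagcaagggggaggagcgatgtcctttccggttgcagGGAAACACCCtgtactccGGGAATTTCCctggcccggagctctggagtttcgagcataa
Ccl3 chr11:83649409-83649528 (-): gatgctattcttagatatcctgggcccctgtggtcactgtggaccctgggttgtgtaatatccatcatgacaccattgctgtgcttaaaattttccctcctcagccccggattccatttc
Cxcl2 and Cxcl1 each held 2 matches, Cxcl3 held 1, and Ccl3 held 0 in the 250 bases upstream. Of all 32851 upstream windows of that length in the RefSeq table, 1.41% held a match. Counted by gene, 1.65% of 27025 genes held one, and 4 of the 22 genes of a list of NF-kB targets that were found there did. A match is only a run of letters, and binding was not measured.

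Among the chemokines with at least 50 UMIs over both libraries, Cxcl3 had the largest ratio between the libraries and Cxcl2 was close to level. Cxcl2 had 10245 CPM in the treated-labelled library and 9871 CPM in the control-labelled library, a log2 ratio of 0.05 (0.03 to 0.08). Cxcl3 had 401 CPM and 131 CPM, a log2 ratio of 1.62 (1.45 to 1.80), and was found in 17.7% and 10.97% of cells. The ratio of Cxcl3 stayed between 1.43 and 1.83 over the alternatives run, among them leaving out its 5 highest cells in each library. Ccl3 had 426 and 329 CPM (log2 ratio 0.37, 0.25 to 0.49) and Ccl4 1006 and 725 CPM (0.47, 0.39 to 0.55). In chemokine-low cells, where the rule keeps the 4 genes low, Cxcl3 had 11.2 and 6.92 CPM.

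Other chemokines were expressed without being asked for by the rule. Ccl6, a CC chemokine that mouse neutrophils make in quantity, had 1704 CPM in the treated-labelled library and 1261 CPM in the control-labelled library (log2 ratio 0.43, 0.37 to 0.50), and was found in 80.0% and 77.9% of cells. Cxcl1 had 110 and 92.2 CPM (0.26, 0.03 to 0.49). Cxcl10, an interferon-induced ligand of Cxcr3, had 98.6 and 46.1 CPM (1.10, 0.79 to 1.41). Its level in T cells was 69.8 and 85.9 CPM, so the control-labelled value was below the T cell level. Cxcl16, a membrane-bound scavenger receptor and chemokine, had 18.9 and 6.94 CPM (1.44, 0.67 to 2.29), against 15.3 and 6.26 CPM in T cells. Cxcl5, a granulocyte chemokine of epithelium, had 0 UMIs in both libraries, which does not show absence. Where a ratio was taken with a count of 0 in 1 library, that count was set to a floor of 3 UMIs.

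Levels in other leukocytes are given for scale. The neutrophils were selected on Cxcl2, Cxcl3, Ccl3 and Ccl4 and the other cells were not, so these 4 levels are a description of the choice; Il1b and Tnf were not used by the rule. Cxcl2 had 10257 CPM in C1q macrophages of the treated-labelled library and 13062 CPM in those of the control-labelled library, the first close to the neutrophil value and the second above it. Ccl4 had 4074 and 5146 CPM in C1q macrophages, above both neutrophil values. Cxcl3 was highest in chemokine-expressing neutrophils, with 70.3 and 51.9 CPM in C1q macrophages and 169 and 63.8 CPM in monocytes with at least 2 Ly6c2 UMIs. Il1b, the cytokine that the inflammasome matures, had 8037 and 8314 CPM in chemokine-expressing neutrophils, 5464 and 5033 CPM in Ly6c2 monocytes and 1841 and 1909 CPM in C1q macrophages. Tnf, tumour necrosis factor, had 275 and 210 CPM in the neutrophils and 685 and 703 CPM in the macrophages.

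**Figure D2:**
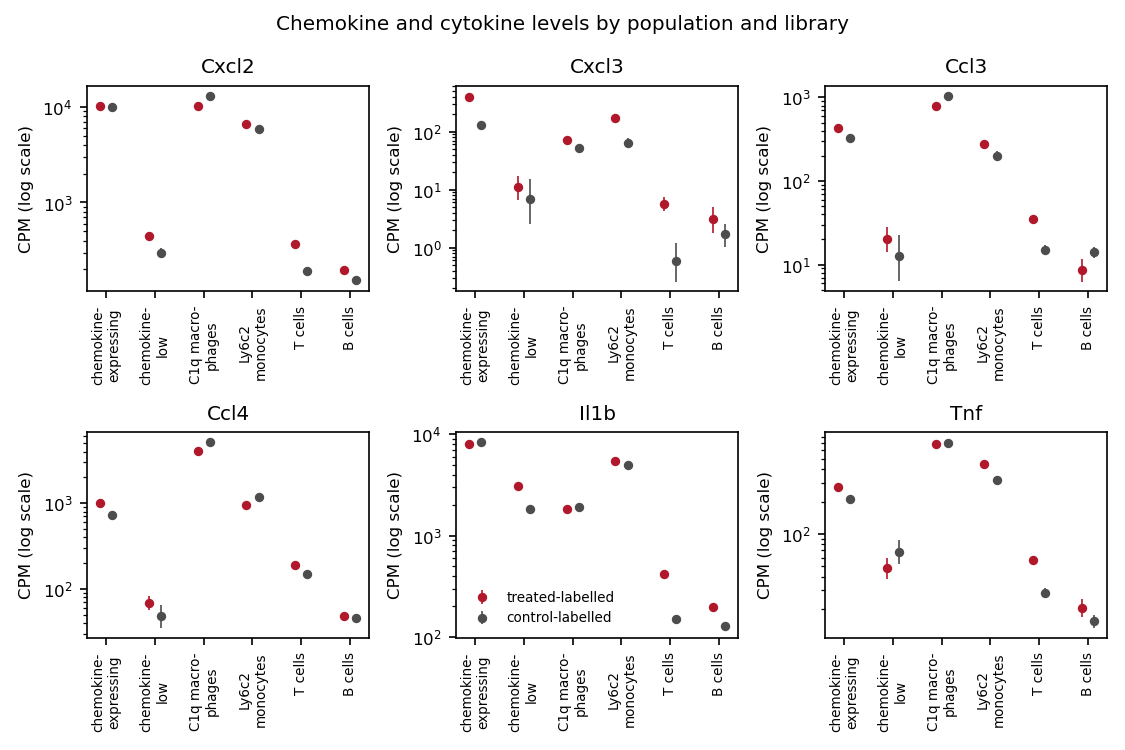
Level of 6 genes (vertical axis, CPM of summed UMIs, log scale) in 6 populations (horizontal axis), with 1 point per library and bars for 95% Poisson intervals. Cxcl3 and Il1b are highest in chemokine-expressing neutrophils of both libraries, and Ccl3, Ccl4 and Tnf in C1q macrophages. The T and B cell points are for scale, and how far they are background was not tested.

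The neutrophils also held a sizeable part of the UMIs of some cytokine genes. They were 11.8% and 6.74% of kept barcodes. Of all UMIs of kept barcodes they held 4188680 of 77200450 (treated-labelled) and 2450084 of 88007779 (control-labelled), a smaller part. For Il23a, the p19 subunit of interleukin 23, their share was 27.8% (24.3 to 31.5) in the treated-labelled library and 32.7% (28.2 to 37.4) in the control-labelled library. Il12a, a subunit of interleukins 12 and 35, had 23.1% and 19.5% of its UMIs in them, and Csf1, the macrophage growth factor, 27.6% and 18.4%. Il1b had 18.8% and 21.6%. Of the genes that chose the cells, Cxcl3 had 30.8% and 22.2% and Cxcl2 13.1% and 10.6%, values that the rule partly sets. The share of Ccl2, the main monocyte chemokine, was 0.649% and 0.679%, with 68.2% and 68.8% of its UMIs in C1q macrophages.

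Chemokine-expressing and chemokine-low neutrophils differed in a broad set of inflammatory genes. The chemokines were what the rule chose by, so what follows is a description with no test. Of 4522 genes with enough counts, 533 (11.8%) were at least 1.5-fold higher and 304 (6.72%) at least 1.5-fold lower in chemokine-expressing cells of both libraries. Of 25 targets and feedback genes of NF-kB, 23 were higher in both, with medians of 1.20 (treated-labelled) and 1.71 (control-labelled) on the log2 scale, where all genes had medians of 0.03 and 0.05. Nfkbia, which encodes the inhibitor that NF-kB induces against itself, had 2838 CPM in chemokine-expressing and 899 CPM in chemokine-low cells of the treated-labelled library, and 2946 and 686 CPM in those of the control-labelled library. Nlrp3, the inflammasome sensor, had 1068 and 263 CPM, and 831 and 115 CPM. Ptgs2, the inducible cyclooxygenase, had 565 and 152 CPM, and 422 and 64.6 CPM. By the smaller ratio of the 2 libraries, the genes next to the chemokines, beside Nlrp3 and Ptgs2, were Il1a, Ccrl2 (a receptor that binds chemerin), the survival genes Bcl2a1b and Bcl2a1d, Icam1 (an adhesion ligand), Hcar2 (a receptor for niacin and hydroxybutyrate), Traf1, Gadd45b and Ctsc. Bcl2a1b and Bcl2a1d are near-identical copies of 1 gene, and reads can be split between them.

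Genes of the secondary granules, which neutrophils load while they mature in bone marrow, were lower in chemokine-expressing cells. Of the 10 listed, 8 were at least 1.5-fold lower in both libraries, with medians of -1.37 (treated-labelled) and -1.54 (control-labelled). Camp, the cathelicidin, had 2327 CPM in chemokine-expressing and 14741 CPM in chemokine-low cells of the treated-labelled library, and 3377 and 18061 CPM in those of the control-labelled library. Ngp, neutrophilic granule protein, had 3143 and 14570 CPM, and 4448 and 21811 CPM. Ltf (lactoferrin), Chil3, Serpinb1a, Abca13, Lta4h, Stmn1, Krt81 and Ncam1 completed the 10 genes with the lowest ratios. The depth of the cells differed too: the chemokine-low cells had medians of 2213 UMIs (treated-labelled) and 3434 UMIs (control-labelled).

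The same pattern ran on inside the chemokine-expressing cells, as the plot over chemokine classes shows. From 5 to 9, through 10 to 19 and 20 to 49, up to 50 or more UMIs of the 4 chemokines, Il1b was at 5189, 6779, 7772 and 12347 CPM in the treated-labelled library and at 5149, 6754, 8687 and 11377 CPM in the control-labelled library. Il1rn, the natural antagonist of interleukin 1, was at 197, 309, 340 and 560 CPM, and at 227, 341, 375 and 475 CPM. Tnf was at 107, 105, 163 and 787 CPM, and at 109, 88.6, 139 and 516 CPM, far above the other classes in the last. Camp was at 6369, 1567, 1317 and 1211 CPM, and at 7583, 2847, 1908 and 3747 CPM, so most of its decline lay between the first classes and it was not steady in the control-labelled library. Osm, oncostatin M, did not follow the chemokines, with 351 CPM in the lowest class and 270 CPM in the highest (treated-labelled), and 230 and 189 CPM (control-labelled).

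**Figure D3:**
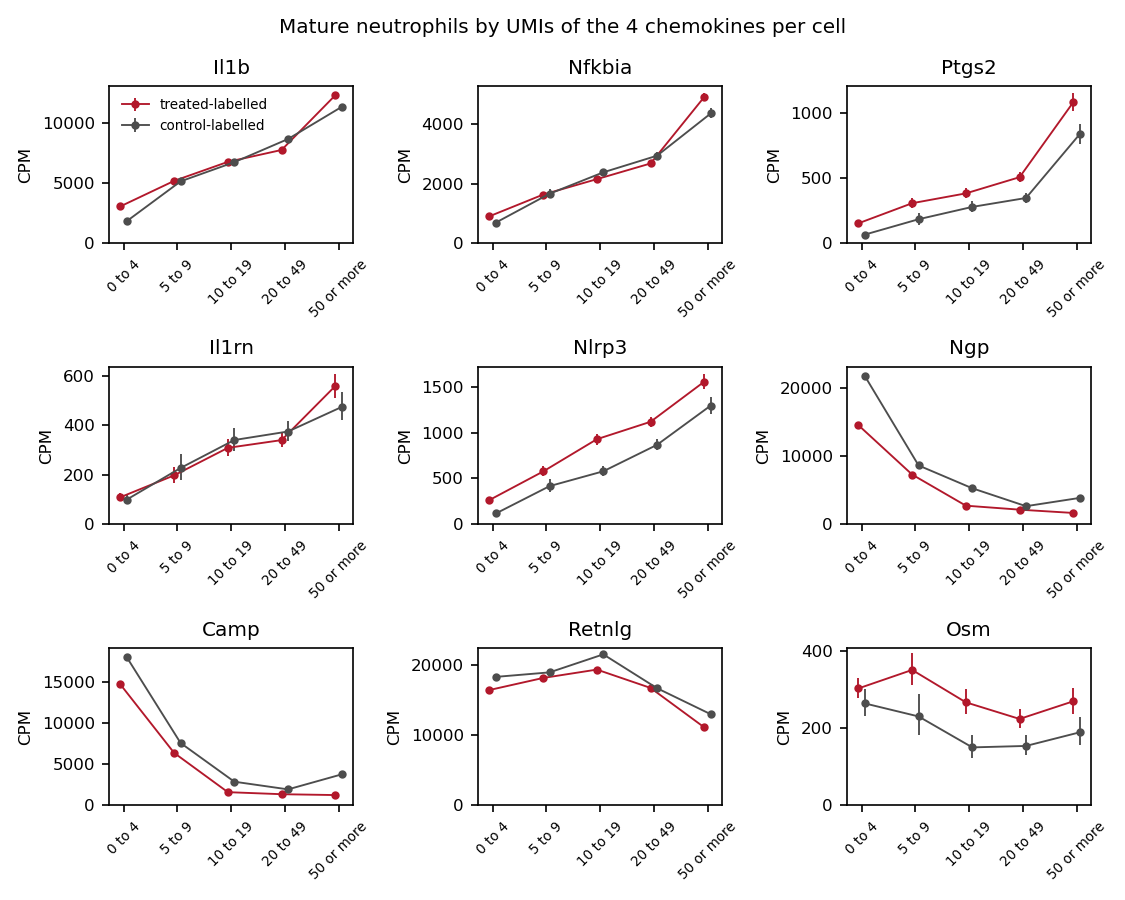
Level of 9 genes (vertical axis, CPM from 0, with 95% Poisson intervals) in mature neutrophils by UMIs of the 4 chemokines per cell (horizontal axis, where 0 to 4 is the chemokine-low class), 1 line per library. Il1b, Nfkbia, Ptgs2, Il1rn and Nlrp3 climb with the chemokines in both libraries, Ngp and Camp are highest in the chemokine-low class, and Osm does neither.

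Chemokine-expressing neutrophils were not uniform in their share of S100a8 and S100a9. The share was from 2% to under 5% in 237 cells (16.1%) of the treated-labelled library and 75 cells (9.25%) of the control-labelled library, and at least 15% in 645 (43.8%) and 427 (52.7%). Granule transcripts lay at the upper end: cells with at least 15% held 95.6% and 95.4% of all Ngp UMIs of the population. Cxcl2 was highest in the middle and low classes, with 12081, 13347 and 7452 CPM from the lowest to the highest class (treated-labelled) and 13462, 12464 and 7741 CPM (control-labelled). Genes of other myeloid cells went different ways over the classes. In the lowest class Cd74, the invariant chain of MHC class II, had 2124 CPM (treated-labelled) and 2250 CPM (control-labelled). In the highest class it had 136 and 233 CPM. S100a4, a calcium-binding protein of monocytes and T cells, had 830 and 162 CPM in the lowest class and 24.0 and 25.03 CPM in the highest. The monocyte marker Ly6c2 had the opposite order, 250.1 and 201 CPM in the lowest class and 547 and 566 CPM in the highest. Vcan, F10 and Ccr2, also monocyte genes, went with Cd74. Vcan had 152 and 232 CPM in the lowest class and 14.2 and 3.575 CPM in the highest. F10 had 168 and 150 CPM against 22.0 and 17.9 CPM, and Ccr2 103 and 94.6 CPM against 4.90 and 2.86 CPM. Hdc, a neutrophil gene that the rule did not use, had 1789 and 1915 CPM in the lowest class and 2318 and 2320 CPM in the highest. Il1r2, also outside the rule, had 1156 and 1241 CPM against 1291 and 1326 CPM. The neutrophil genes Ly6g, Mmp9 and G0s2, outside the rule as well, were lower in the lowest class. Ly6g had 55.6 and 59.1 CPM there and 626 and 764 CPM in the highest. Mmp9 had 460 and 319 CPM against 1276 and 1241 CPM, and G0s2 2313 and 3006 CPM against 4677 and 5135 CPM. UMIs were counted over 84 genes of 12 marker lists of other cells, leaving out Igkc, Jchain, Xbp1, F10, Cd68, Siglecf and the C1q genes. More than 3 such UMIs were found in 30.4% and 34.7% of cells of the lowest class. The middle class had 11.5% and 16.8%, and the highest 27.6% and 27.4%. Scrublet, a caller of droplets with 2 cells, marked 2.65% and 1.23% of the population.

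**Figure D4:**
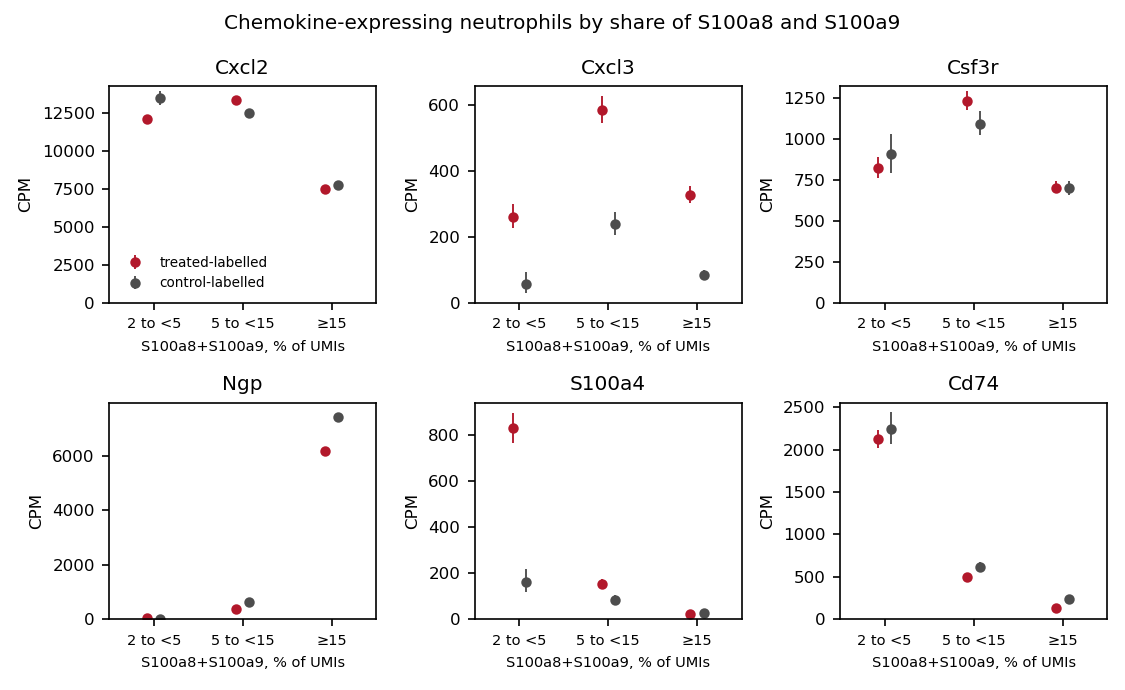
Level of 6 genes (vertical axis, CPM from 0, with 95% Poisson intervals) in chemokine-expressing neutrophils by the share of S100a8 and S100a9 in a cell's UMIs (horizontal axis, %), 1 point per library. Ngp lies in the highest class, S100a4 and Cd74 in the lowest, and Cxcl3 is higher in the treated-labelled library in each class.

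Between the libraries, the chemokine-expressing neutrophils differed in few genes by a large factor. Of 6176 genes with at least 50 UMIs over both libraries, 587 (9.5%) were at least 1.5-fold higher in the treated-labelled library and 167 (2.7%) at least 1.5-fold lower, 12.2% in either direction. The median of all genes was 0.12 on the log2 scale, so a gene near 0.12 followed the rest. When that shift was removed by scaling to the median of ratios, 369 genes were higher and 276 lower, so much of the excess of higher genes depends on the scaling. The chemokine-low neutrophils of the same libraries had 554 higher (13.4%) and 149 lower (3.61%) of 4132 genes. Part of these counts can be counting noise, which the intervals cover only gene by gene. With single libraries, differences between animals and an effect of treatment cannot be told apart.

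Several of the largest ratios came from very few cells. The 12 highest were Cfd, Mmp12, S100a4, Crip1, Cxcl3, Lgals1, Mgp, S100a10, Prdx1, Ifi30, Fmnl2 and Rgs1. Cfd, the adipocyte and macrophage protease adipsin, had 84.0 CPM in the treated-labelled library and 1.22 CPM in the control-labelled library, with UMIs in only 4 and 2 cells. Mmp12, macrophage elastase, and Mgp, a matrix protein of smooth muscle, had 97.6% and 99.8% of their treated-labelled UMIs in the 5 highest cells. S100a4 had 211 and 58.0 CPM (log2 ratio 1.87), and 70.8% and 28.9% of its UMIs lay in the cells with under 5% S100a8 and S100a9; T cells had 914 and 477 CPM. Crip1, an actin-linked LIM protein, had 352 and 107 CPM (1.72), with 63.1% and 52.1% there. Prdx1, a peroxidase of hydrogen peroxide, had 308 and 135 CPM (1.19), with 77.0% and 31.1% there, and without those cells its log2 ratio was -0.26. The summed level of 10 macrophage markers was 311 CPM (treated-labelled) and 231 CPM (control-labelled), that of 9 monocyte markers 660 and 640 CPM, and that of 8 dendritic cell markers 68.8 and 36.7 CPM, with Siglech at 0. Other lists were lower in the treated-labelled library, 15.3 and 118 CPM for 6 fibroblast genes, 12.4 and 43.7 CPM for 7 B cell genes (Cd79a at 0 by the rule), 42.7 and 84.9 CPM for 7 genes of NK cells and ILC2, and 58.0 and 88.2 CPM for 7 endothelial and smooth muscle genes. Dcn alone gave 5.97 and 94.3 CPM of the fibroblast sum, and Areg 26.7 and 64.5 CPM of the NK cell and ILC2 sum. Mast cell and basophil genes had 56.1 and 32.7 CPM, and T cell genes (Cd3e at 0 by the rule), eosinophil genes (Epx, Ear1 and Ear6 at 0) and red cell and platelet genes (Alas2 at 0) were between 19.1 and 41.3 CPM. The part of other cells in the result was not tested.

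Fmnl2 and Rgs1 were spread over more cells, with 14.6% and 25.3% of their treated-labelled UMIs in the 5 highest cells. Fmnl2, a formin that builds actin filaments, had 195 CPM in the treated-labelled library and 89.4 CPM in the control-labelled library (log2 ratio 1.13, 0.91 to 1.35), in 18.3% and 12.7% of cells. Rgs1, which damps chemokine receptor signals, had 90.5 and 41.6 CPM (1.12, 0.80 to 1.45), but T cells had more of it, 477 and 458 CPM. Of 44 named genes at least 1.5-fold higher, 13 stayed so in all alternatives that gave a value: Cxcl3, Cxcl10, Cxcl16, Fmnl2, Rgs1, Irf5, S100a4, Crip1, Atf3, Cd300ld, Pfkp, Gbp5 and Krt81. Atf3, a stress-induced transcription factor, had 65.2 and 34.7 CPM (0.91, 0.55 to 1.28). Cd300ld, a CD300 family receptor of myeloid cells, had 236 and 139 CPM (0.77, 0.59 to 0.95) and was also higher in chemokine-low cells, with 160 and 56.5 CPM. Pfkp, a phosphofructokinase of glycolysis, had 76.4 and 41.6 CPM (0.88, 0.55 to 1.21).

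The 12 lowest ratios were those of Dcn, Rora, Saa3, Jchain, Areg, Prok2, Ifit1, Wwtr1, Med21, Ly6a, Plxdc2 and Wfdc17. Dcn, the fibroblast proteoglycan decorin, had 98.3% of its control-labelled UMIs in 5 cells. Jchain, which joins IgM and IgA, was lower along with Igkc and the other plasma cell genes. Their summed level of 6 genes was 949 CPM (treated-labelled) and 3343 CPM (control-labelled) in chemokine-expressing cells and 935 and 3521 CPM in chemokine-low cells. Prok2 (Bv8), a chemoattractant peptide of neutrophils, had 122 CPM in the treated-labelled library and 269 CPM in the control-labelled library (log2 ratio -1.15, -1.32 to -0.98), in 10.7% and 22.7% of cells. Chemokine-low cells had 44.6 and 163 CPM of Prok2, and T cells 0.0978 and 0.894 CPM. Wfdc17, which encodes a small whey acidic protein of activated phagocytes, was the most abundant of the 24 genes, with 4665 and 7713 CPM (-0.73, -0.75 to -0.70). It was lower in each class of S100 share (-0.73, -0.52 and -0.75) and stayed between -0.85 and -0.62 over the alternatives run. In chemokine-low cells it had 2543 and 2369 CPM. Saa3, an acute-phase protein, had 30.1 and 94.3 CPM (-1.65), in 3.05% and 4.69% of cells. Of 18 named genes at least 1.5-fold lower, Prok2, Wfdc17, Saa3, Areg, Jchain and Chil3 stayed so in all alternatives, 6 in all.

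**Figure D5:**
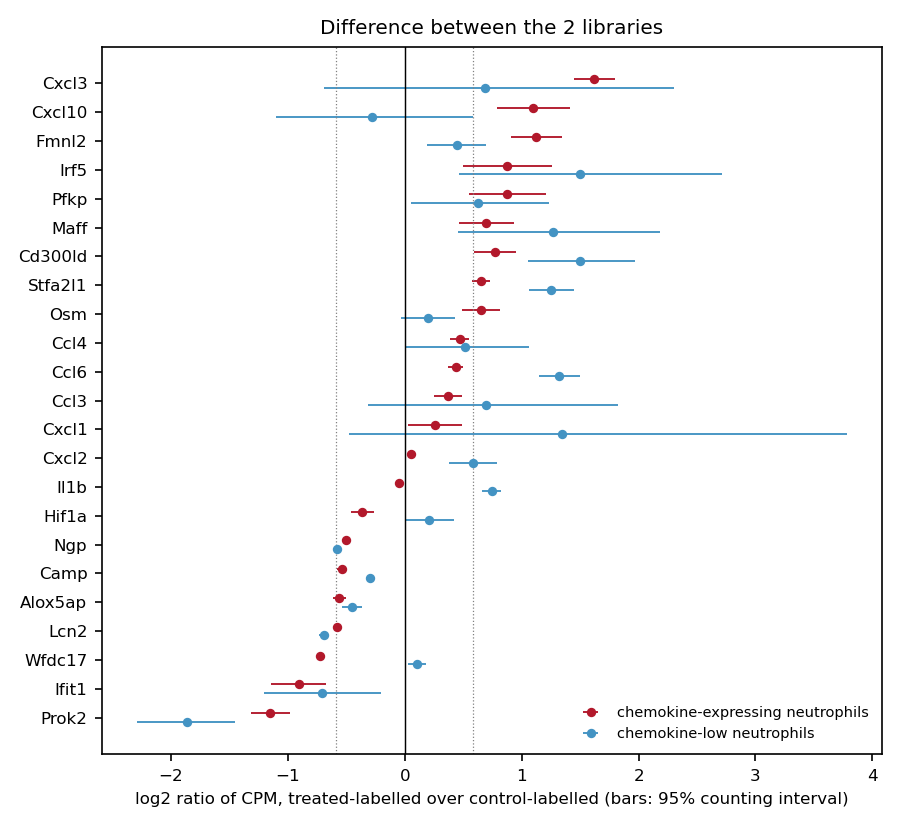
Log2 ratio of CPM, treated-labelled library over control-labelled library (horizontal axis), of 23 genes in chemokine-expressing and chemokine-low neutrophils; bars are exact 95% counting intervals and dotted lines mark 1.5-fold. Irf5 and Fmnl2 lie right of 0 and Prok2 left of 0 in both populations, while the interval of Cxcl3 spans 0 in chemokine-low cells, which the rule keeps low in it, and Wfdc17 lies left in chemokine-expressing cells only.

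Gene lists gave the direction of smaller differences. Of 10 secondary granule genes, 9 lay below 0 (median -0.51), and 2 (Ltf and Chil3) were at least 1.5-fold lower, where 1995 of all 6176 genes lay below 0 and 2.7% were at least 1.5-fold lower. Lcn2, lipocalin 2, had 3773 CPM in the treated-labelled library and 5639 CPM in the control-labelled library (-0.58, -0.61 to -0.55). Lyz2, lysozyme, was the exception with 2432 and 1644 CPM (0.56). The median of this list was -0.07 in cells with at most 3 UMIs of other-cell markers, so it rests in part on the cells that this removes. In chemokine-low cells the median was -0.46.

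Of 24 immediate early genes measured, 22 lay above 0 with a median of 0.20 and 4 (Atf3, Nr4a2, Maff and Egr3) were at least 1.5-fold higher, where 4181 of all 6176 genes lay above 0 and 9.5% were at least 1.5-fold higher. With median of ratios scaling the median of this list was 0.07. Maff, a small Maf factor, had 138 and 84.9 CPM (0.70, 0.46 to 0.93). None of the 25 NF-kB targets was 1.5-fold apart in either direction, against 12.2% of all genes, and their median was 0.03, or -0.09 with median of ratios scaling; Nfkbia had 2838 and 2946 CPM (-0.05). The 23 genes of the type I interferon response had a median of -0.19, with 15 below 0. Isg15, a ubiquitin-like protein, had 471 CPM in the treated-labelled library and 698 CPM in the control-labelled library (-0.57, -0.66 to -0.47), and Ifit1, which binds viral RNA, 68.8 and 129 CPM (-0.91, -1.14 to -0.67). Ifit1, Ifit3b and Xaf1 were at least 1.5-fold lower and Ifit2 and Ifi47 at least 1.5-fold higher, so the list was split. With at most 1 UMI of T, B, plasma cell and C1q genes its median was -0.03. Of 12 genes of the interferon gamma response 4 were at least 1.5-fold higher (Gbp5, Igtp, Psmb8 and Socs1), against 9.5% of all genes. The interval of Socs1 spanned 0, and Gbp5 stayed at least 1.5-fold higher in all alternatives.

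Among 18 cytokines measured, Osm, Vegfa and Tnfsf13b were at least 1.5-fold higher and Il6 at least 1.5-fold lower, against 9.5% and 2.7% of all genes. Osm had 269 CPM in the treated-labelled library and 171 CPM in the control-labelled library (log2 ratio 0.65, 0.49 to 0.81). After thinning it was seen in 21.4% and 11.4% of cells, against 1.08% and 0.831% of T cells. Its ratio fell below 1.5-fold with a minimum of 1000 genes and with median of ratios scaling, and the lowest value was 0.22. In chemokine-low cells the ratio of Osm was 0.20 (-0.03 to 0.43). Vegfa, an endothelial growth factor, had 53.7 and 30.6 CPM (0.81, 0.43 to 1.21). Il6 was seen in 1.43% and 0.986% of cells, and its ratio turned to 1.80 without the 5 highest cells. Il1b and Il1rn were level, with log2 ratios of -0.05 (-0.07 to -0.02) and -0.06 (-0.18 to 0.06). Of 13 chemoattractant receptors none was 1.5-fold apart: Cxcr2 had 376 and 301 CPM (0.32, 0.19 to 0.45) and Cxcr4, which holds neutrophils in bone marrow, 381 and 298 CPM (0.36, 0.23 to 0.48). Of 9 genes of lipid mediator synthesis none was either. Ptgs2 had 565 and 422 CPM (0.42, 0.32 to 0.53), and Alox5ap, which presents arachidonate for leukotriene synthesis, 1377 and 2030 CPM (-0.56, -0.62 to -0.51).

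Oxygen and sugar genes were mixed. Of 23 genes of glycolysis and hypoxia, Pfkl, Pfkp, Vegfa, Egln3 and Ndrg1 were at least 1.5-fold higher, 5 in all, against 9.5% of all genes. Of the 23, 17 lay above 0, near the share of all genes that did (4181 of 6176), and the median of 0.10 turned to -0.02 with median of ratios scaling. Hif1a, the hypoxia-inducible factor, had 488 CPM in the treated-labelled library and 628 CPM in the control-labelled library (-0.36, -0.46 to -0.27), and in chemokine-low cells 355 and 307 CPM. Ldha, lactate dehydrogenase A, had 248 and 285 CPM (-0.20, -0.34 to -0.06). Of 15 neutrophil identity genes only Stfa2l1, a cysteine protease inhibitor, was at least 1.5-fold apart, with 1209 and 768 CPM (0.65, 0.58 to 0.73). Ly6g, the surface protein used to sort neutrophils, had 364 and 509 CPM (-0.48, -0.59 to -0.38).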

How the data were processed

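The deposited values were UMI counts per gene and barcode with no normalization, per the file headers and the values. Per the submitters' processing notes, the authors used Cell Ranger 3.1.0, Seurat 4.4.0 and build mm10 (GRCm38); the matrix headers name Cell Ranger 7.2.0, which of the versions made the counts is not settled, and the sources used here do not say whether introns were counted. Per the labels, libraries were 10x Genomics 3′ libraries. All 32285 genes entered totals. The population, the gene lists and the comparisons were chosen with earlier results of these data known. UMIs were summed per library and population and divided by the summed total (CPM); log2 ratios carry exact conditional binomial intervals, shares Clopper-Pearson and levels Poisson intervals, all at 95%. With 1 library per group no test was run. Genes with at least 50 UMIs over both libraries entered, and called means at least 1.5-fold. Genes in the text were the 12 highest and 12 lowest ratios with at least 50 CPM in 1 library (mitochondrial, ribosomal, haemoglobin, sex-linked, predicted, immunoglobulin and T cell receptor genes left out), the 15 highest and 10 lowest between chemokine-expressing and chemokine-low cells with at least 100 CPM, up to 4 per list with the largest ratios, the chemokines, and others named after their values were seen, chosen for their role. There were 28 lists of neutrophil genes and 12 of other cells. The limit of 3 UMIs of other-cell lists left out Igkc, Jchain, Xbp1, F10, Cd68, Siglecf and the C1q genes. The limit of 1 UMI of T, B, plasma cell and C1q genes covered 21 genes and left out Igkc and Xbp1. Doublets were left in, and leaving out Scrublet calls (scanpy 1.11.5; 3.81% of treated-labelled barcodes, 3.77% control-labelled) was an alternative. Thinning drew 1000 UMIs per cell without replacement and left out 6 treated-labelled cells and 3 control-labelled. Ratios were checked on simulated counts. Python 3.11.15, numpy 2.4.6, scipy 1.17.1, pandas 2.3.3 and matplotlib 3.10.9 were used. Gene coordinates come from GENCODE, upstream sequences from RefSeq.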

Additional observations from a re-analysis of the deposited data

Results flagged for a closer look

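Prdx1 and Wfdc17 had ratios of opposite sign in the neutrophil populations, and the difference was not tested. The log2 ratio of Prdx1, treated-labelled over control-labelled, was 1.19 in chemokine-expressing neutrophils and -0.78 (-1.24 to -0.32) in chemokine-low neutrophils, where it had 51.7 and 88.8 CPM. In cells with at least 15% S100a8 and S100a9 it was -0.63. In the treated-labelled library 1 chemokine-expressing cell held 41.2% of the Prdx1 UMIs, and the 5 highest cells held 64.3%. Without the 5 highest cells of each library Prdx1 was no longer at least 1.5-fold higher in chemokine-expressing neutrophils. The log2 ratio of Wfdc17 was -0.73 in chemokine-expressing neutrophils and 0.10 (0.03 to 0.18) in chemokine-low neutrophils, a value near the median of all genes there, 0.13. Over the chemokine classes from 5 to 9 up to 50 or more UMIs, Wfdc17 had 3800, 4432, 4837 and 5413 CPM in the treated-labelled library and 6471, 7183, 9417 and 6448 CPM in the control-labelled library.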

How the results depend on the processing

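The share of kept barcodes stayed higher in the treated-labelled library in the 10 alternatives that set it, with ratios of 2.15 with a minimum of 1000 genes and 2.20 with at most 1 UMI of T, B, plasma cell and C1q genes. The share of mature neutrophils turned, with a ratio of 1.07, at a minimum of 1000 genes, and was not computed with at most 3 UMIs of all other-cell lists. The count of genes at least 1.5-fold higher became 318 after thinning to 1000 UMIs, 339 with S100a8 and S100a9 at least 5%, 388 with at most 3 UMIs of all other-cell lists (chosen after seeing the data), 369 with median of ratios scaling, 133 with at least 200 UMIs per gene and 2285 with at least 1 UMI in each library. The count of genes at least 1.5-fold lower became 93 after thinning, 276 with median of ratios scaling, 36 with at least 200 UMIs per gene and 2149 with at least 1 UMI in each library. Log2 ratios of named genes that were at least 1.5-fold apart changed sign as follows. With S100a8 and S100a9 at least 5%, Ccl12 was -0.54, Cfd -1.23, Dcn 0.75, Il6 1.12, Irf8 -0.49 and Prdx1 -0.26. With at most 1 UMI of T, B, plasma cell and C1q genes, Ccl12 was -0.73, Cfd -1.15 and Mgp -5.81. With at most 3 UMIs of all other-cell lists, Ccl12 was -0.69, Il6 0.95, Lgals1 -0.15, Ltf 0.0057, Mgp -1.86, Pecam1 0.0073 and Stmn1 -0.86. Without the 5 highest cells of each library (also chosen after seeing the data), Dcn was 0.027, Il6 1.80, Mgp -0.78 and Stmn1 -0.22. With the chemokine threshold at 10 UMIs, Cfd was -0.68 and Stmn1 -0.40, and at 3 UMIs Stmn1 was -0.64. With a chemokine share of 0.2% of UMIs, Cfd was -0.82, Mgp -5.18 and Stmn1 -0.64. After thinning, Mgp was -2.75, Mmp12 -0.14 and Stmn1 -0.88, and by the mean of cell CPM Il6 was 0.026. The cause was not tested. None of these genes changed sign with median of ratios scaling, at most 10% mitochondrial UMIs, without Scrublet calls, at a minimum of 1000 genes or with the chemokine classes weighted alike. Median of ratios scaling shifted all 28 list medians by -0.12, and 10 of them changed sign. No paired analysis was possible because each group held 1 library. Depth limits the values: a gene with 50 UMIs over both libraries has a wide counting interval, and no interval covers differences between animals.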

Other observations

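Iron and redox genes were higher in chemokine-expressing than in chemokine-low cells. Fth1, the ferritin heavy chain that stores iron, had 22984, 27177, 29336 and 37588 CPM over the chemokine classes from 5 to 9 up to 50 or more UMIs in the treated-labelled library, and 22404, 27083, 30843 and 29428 CPM in the control-labelled library, against 15084 and 11811 CPM in chemokine-low cells. Slc7a11, the cystine importer, had 2864 CPM in chemokine-expressing and 1575 CPM in chemokine-low cells of the treated-labelled library, and 2684 and 1114 CPM in those of the control-labelled library. Of 12 stress and iron genes measured in both populations, 9 were at least 1.5-fold higher in chemokine-expressing cells of both libraries, against 11.8% of all genes.

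Some receptors for microbial or dead-cell products, picked after their values were seen, had the following levels. Clec4e (Mincle), a lectin that senses mycobacterial lipid and dead cells, had 2142 CPM in chemokine-expressing cells of the treated-labelled library and 2472 CPM in those of the control-labelled library, and Clec4d, its partner, 1937 and 1649 CPM. Chemokine-low cells had 1041 and 971 CPM of Clec4e. Fpr1, the receptor for formylated peptides, had 524 and 587 CPM in chemokine-expressing cells and 184 and 201 CPM in chemokine-low cells, while its relative Fpr2 had 249.7 and 253 CPM, and 249 and 278 CPM.

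Apoe, an abundant gene of lesion macrophages, had 5.84 CPM in C1q macrophages of the treated-labelled library and 6.44 CPM in those of the control-labelled library. The labels give no genotype.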
